A study of Mus musculus with 4 samples.

Results

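The genes described here build and steer the vesicles that carry proteins between the compartments of a cell: Rab, Arf and Arl GTPases, vesicle coats and adaptors, tethers, SNAREs, sorting nexins, Vps genes and CHMP genes. They were taken by symbol from the authors' sheet of probes called changed, keeping rows with a single gene symbol that starts with a name of these families (Rab, Arf, Arl, Vps, Snx, Stx, Vamp, Snap, Sec, Trappc, Cop, the subunits of the AP adaptors, Exoc, Chmp and Tbc1d, the numbered names with their number). The rule gave 178 genes on 195 probes, of 8519 genes on 9190 single-symbol probes in that sheet and 26423 probes on the array. The RefSeq mouse gene table holds 327 protein-coding symbols that match the same rule, and the others have no named probe here. Because the sheet lists only probes that the authors had already called on these arrays, all 178 genes were expected to differ, and their differences are given as a description.

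Both groups were C17.2 cells, a mouse neural progenitor line that is a single clone immortalised with v-myc, and all of them had been damaged with AAPH, an azo initiator that dissolves in water and gives off peroxyl radicals. The berberine group received 7.38 mM AAPH together with 1.69 µM berberine, a plant alkaloid, for 12 h (2 arrays). The control group received 7.38 mM AAPH alone for 12 h (2 arrays). Undamaged cells and cells given berberine alone were not analysed here. Expression was measured as Cy5 intensity on 1-colour arrays, 1 array for each sample. The labels do not say whether the 2 samples of a group were separate cultures, so p-values measure only the spread between these samples, and any shared handling of a group cannot be told apart from berberine.

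The median intensity over all probes was 189 and 206 on the berberine arrays, against 333 and 273 on the control arrays. At the bright end the order was the other way, with a 99th percentile of 96496 and 83026 with berberine, against 66711 and 54628 in controls. Intensities are printed below as deposited, whereas folds and log2 fold changes (berberine minus control, ± standard error of the limma fit, 2 arrays a group) come from quantile-normalized values and can therefore exceed the ratio of the printed intensities. A gene is called here when its Benjamini-Hochberg adjusted p in the limma fit over all probes was under 0.05. Of 12 neural stem and progenitor markers looked for, 4 had a named probe: with berberine, Sox9 and Hes1 were lower and at background, and Prom1 and Msi1 were higher. The rise of Msi1 (1.14 on the log2 scale) was seen after normalization. Its deposited intensities overlapped between groups, at 2153 and 2391 with berberine, against 2214 and 1834 in controls. Nes and Sox2 had no named probe. The summed intensity of these 4 was 2847 and 3254 with berberine, against 6750 and 5634 in controls. Since the sheet holds only probes the authors had called, a marker they did not call could not be counted. Of all named genes 55.6% were called higher. Markers of other neural cells mostly moved up: 5 of 7 measured neuronal markers (of 8 looked for), 4 of 4 astrocyte markers (of 7) and 5 of 5 oligodendrocyte markers (of 7) were called higher. Their summed intensities were 37197 and 38446 with berberine, against 25282 and 20884 in controls, for neuronal markers. Nefm, a neurofilament gene, carried that sum: without it the other 6 summed to 7022 and 6287 with berberine, against 18782 and 15059 in controls, the opposite order. Map2 (−3.80 on the log2 scale) and Tubb3 (−2.27) were the neuronal markers that fell. For astrocyte markers they were 5116 and 5080 with berberine, against 3133 and 2628 in controls. The oligodendrocyte markers, led by Sox10 and Mog, summed to 83929 and 67353 with berberine, against 29372 and 23935 in controls. Both endothelial markers measured (of 5 looked for) were called higher, with sums of 819 and 854 with berberine, against 535 and 534 in controls. The microglial markers Csf1r and Cd68 (of 6 looked for) moved in opposite directions and summed to 200 and 272 with berberine, against 1062 and 925 in controls, most of the control sum being Cd68. No measured marker was at 0, and the part of these markers in the results below was not tested. In bulk RNA, fewer cells of a type and less RNA per cell cannot be told apart.

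Vesicle traffic runs as a cycle. A coat (COPII leaving the endoplasmic reticulum, COPI returning to it, clathrin with AP adaptors at the Golgi and the cell surface) gathers cargo and bends the membrane, Arf and Sar GTPases place the coat, and Rab GTPases mark the vesicle's identity and recruit tethers. Tethers such as TRAPP, the exocyst and the HOPS complex catch the vesicle, SNAREs on both membranes zip together and fuse it, and retromer, sorting nexins and the ESCRT machinery recycle its proteins or send them to lysosomes. In neural progenitors this traffic serves secretion, receptor turnover, the primary cilium and neurite growth.

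With berberine this machinery differed in both directions. Of the 178 genes, 85 were called higher and 92 lower, and Tbc1d30 did not pass (adjusted p = 0.0797 in limma). Over all probes of the array 62.7% were called (40.2% higher and 22.5% lower; 3534 higher and 5236 lower on intensities as deposited, against 10635 higher and 5943 lower after normalization), and over all named genes 99.7% (55.6% higher and 44.1% lower). Since the rule drew on the authors' calls in the same contrast, nothing is read from the members' total. Adjusted p-values of the called members ran between 0.000186 and 0.0461. The falls reached farther from 0 than the rises. The 92 lower genes had a median log2 fold change of −2.98 (−2.80 with genes at background set at their bound), reaching −6.94 for Snx3 among genes detected in both groups and at least 254-fold for Arl3, which was at background with berberine. The 85 higher genes had a median of 1.66 and reached 3.02 for Tbc1d8b. Named genes outside the rule had medians of −2.82 among 3662 lower genes and 1.72 among 4654 higher ones. Over all 178 genes the median was −0.97 (−0.73 with bounds), and over all named genes 1.22 (1.19 with bounds). Among genes detected in both groups, Copa at −0.94 and Snx19 at 1.00 lay nearest to 0. With this gap around 0, a median over both directions mostly follows which direction holds more genes. A small change in that share can move it across the gap. Such medians, here and for the groups below, are therefore no typical size of change. The authors' deposited table has its own ratios nearest to 0 at −1.01 for Rab40b and 1.02 for Rab40c.

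**Figure D1:**
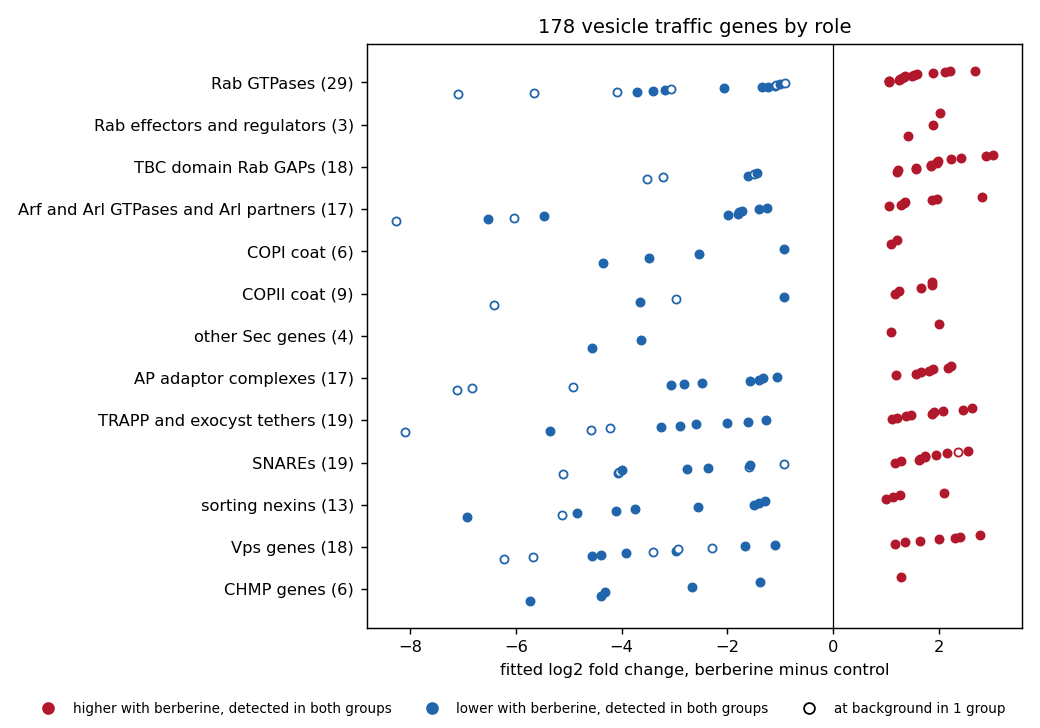
Fitted log2 fold change, berberine minus control, of the 178 vesicle traffic genes, 1 point a gene, in rows by role with the number of genes in brackets. Red points were higher and blue points lower with berberine, and open points were at background in 1 group. The fitted values of open points have no exact size. Every row with more than 3 genes has points on both sides of 0, the filled ones reaching −6.94 for Snx3 and 3.02 for Tbc1d8b.

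Many of the falls went to the floor of the assay. The authors' detection p-value placed 148 genes above background in both groups, 29 in controls only and 1, the SNARE gene Sec22a, with berberine only. The share detected in controls only was 16.3% of members, close to the 16.6% of all named genes (1418 of 8519). Where a gene was at background in 1 group its difference is given as a bound ("at least", none for Tbc1d30), set against the lowest signal detected on those arrays. Rab1b lay above that signal with berberine, so the bound does not differ from its fitted value, which is given instead. Counted with these bounds, 57 of the 178 genes were at least 4-fold lower with berberine, against 2319 of all 8519 named genes (27.2%). At least 16-fold lower were 28 of the 178, against 878 of 8519 (10.3%). At least 4-fold higher were 20 of the 178, a smaller share than the 18% of all named genes (1532 of 8519). As the members also started brighter in controls (median normalized log2 level 11.81, against 10.50 for all named genes), they were set beside other named genes of like control level. In the band of log2 10 to 12, 44.1% of 59 members were called lower, against 43.9% of 2415 other named genes. In the band of 12 to 14 the shares were 64.5% of 62 members and 61.9% of 1603 others. Above 14, 66.7% of 21 members (14 genes) were lower, against 85.8% of 751 others. Control level enters the fold itself, so these bands describe the genes and test nothing. The groups below differ in control level too, with medians of 13.27 for CHMP genes, 12.66 for sorting nexins and 10.17 for TBC domain genes.

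**Figure D2:**
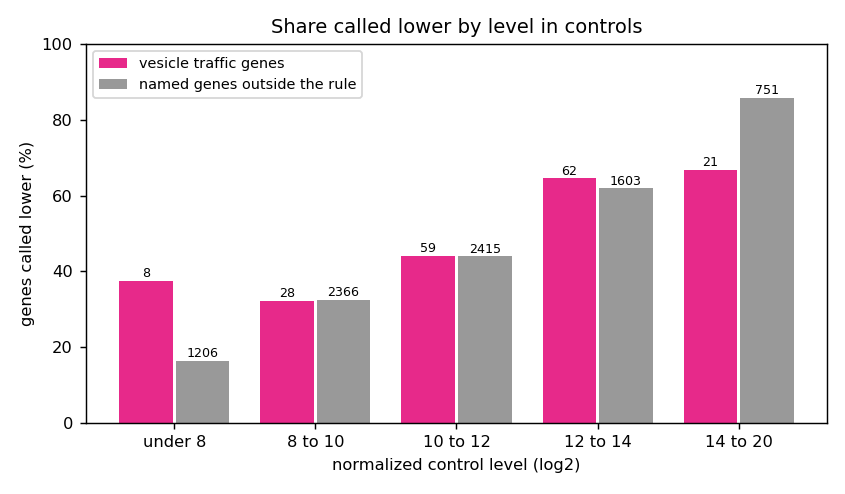
Share of genes called lower with berberine (percent, from 0), in bands of the normalized log2 level in controls, for the vesicle traffic genes and for named genes outside the rule, with the number of genes over each bar. The share rises with the control level in both sets, from the band of 8 to 10 upwards, to 66.7% of the vesicle traffic genes and 85.8% of the others above 14.

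Of the 178 genes, 148 had a promoter in the RefSeq table of mouse assembly GRCm38.p6 (250 bases before to 50 after the start), and these were searched on both strands for 10 short motifs. The letters for CLEAR, NRF1 and YY1 were shortened, and other motifs dropped, after shares for longer forms had been seen. The shares below therefore describe these promoters and test nothing. The core letters of the CLEAR element of lysosomal genes, TCACGTGA, were found in 9 of 148 member promoters (6.08%), against 1.12% of 27025 genes and 1.41% of protein-coding genes. Those 9 were Arl2, Rab21, Rab24, Rab5a, Sec23ip, Sec62, Tbc1d13, Vps16 and Vps26a. TGACGTGG, the core of the unfolded protein response element, was found in 7 (4.73%), against 0.714% of all genes and 0.823% of protein-coding genes. It lay in Ap5z1, Copb1, Copb2, Sec16b, Sec23a, Sec24d and Stx5a. Both kinds were on genes that rose and on genes that fell: 4 rose and 5 fell with TCACGTGA, and 5 rose and 2 fell with TGACGTGG. For the other motifs the share of member promoters is given first, then that of all promoters and that of protein-coding genes. CACGTG, the E-box core that also lies inside TCACGTGA, was in 16.2%, 8.09% and 8.91%. TGACGTCA, the cAMP response element, was in 3.38%, 2.03% and 2.54%. CCGGAAGT, an ETS site, was in 10.1%, 4.31% and 5.69%. GCATGCGC, part of the NRF1 site, was in 8.78%, 3.05% and 3.94%, and AAGATGGC, part of the YY1 site, in 4.05%, 3.19% and 3.57%. TGACNNNGC, the core of the antioxidant response element, was in 20.9%, 14% and 14.8%. CCAAT was in 37.2%, 41.1% and 42.3%, and TATAAA, the TATA box, in 8.11%, 15.7% and 14.8%. No share over the named genes of the sheet is given for any motif. A match is a description of letters, not a site in use.

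The 7 promoters below are shown because they carry the 2 motifs on genes whose values are given in the sections that follow: COPI and COPII coat genes (those shown were all called higher), a SNARE, an endosomal Rab and a lysosomal tether. They are RefSeq sequences of GRCm38.p6, written 5′ to 3′ along the gene, and capitals mark the motif or its reverse complement. Copb1 is read from chr7:114254631-114254930 on the minus strand, with the motif 28 bases before the start. Copb2 is read from chr9:98563481-98563780 on the plus strand, with the motif 7 bases before it. Sec23a is read from chr12:59011968-59012267 on the minus strand, with the motif 6 bases after the start. Sec24d is read from chr3:123267246-123267545 on the plus strand, with the motif 26 bases before the start. Stx5a is read from chr19:8741174-8741473 on the plus strand and has 2 matches, the first of them 9 bases after the start. Rab5a, from chr17:53478984-53479283 on the plus strand, has the CLEAR core 96 bases before the start, and Vps16, from chr2:130424070-130424369 on the plus strand, 19 bases before it.
Copb1: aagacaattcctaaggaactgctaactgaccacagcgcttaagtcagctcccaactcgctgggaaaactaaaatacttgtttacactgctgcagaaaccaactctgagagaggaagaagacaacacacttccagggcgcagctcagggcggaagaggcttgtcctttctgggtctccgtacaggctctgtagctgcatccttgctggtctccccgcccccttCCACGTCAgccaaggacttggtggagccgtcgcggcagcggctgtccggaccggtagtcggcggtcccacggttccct
Copb2: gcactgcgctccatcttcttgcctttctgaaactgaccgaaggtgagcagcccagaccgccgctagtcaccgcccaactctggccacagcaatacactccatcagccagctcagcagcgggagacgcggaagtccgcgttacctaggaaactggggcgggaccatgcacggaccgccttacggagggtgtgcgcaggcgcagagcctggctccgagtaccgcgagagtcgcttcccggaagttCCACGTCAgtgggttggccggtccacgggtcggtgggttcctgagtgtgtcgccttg
Sec23a: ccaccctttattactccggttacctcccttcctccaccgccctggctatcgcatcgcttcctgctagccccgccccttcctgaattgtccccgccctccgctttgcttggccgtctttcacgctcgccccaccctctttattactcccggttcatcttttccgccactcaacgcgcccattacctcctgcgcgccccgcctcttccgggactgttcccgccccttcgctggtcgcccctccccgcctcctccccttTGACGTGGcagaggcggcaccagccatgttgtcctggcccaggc
Sec24d: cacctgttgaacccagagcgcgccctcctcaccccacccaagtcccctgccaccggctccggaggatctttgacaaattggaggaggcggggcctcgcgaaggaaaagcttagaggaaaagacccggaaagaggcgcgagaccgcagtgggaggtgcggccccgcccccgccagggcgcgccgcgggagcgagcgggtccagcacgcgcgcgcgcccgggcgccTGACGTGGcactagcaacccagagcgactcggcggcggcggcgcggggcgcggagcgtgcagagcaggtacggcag
Stx5a: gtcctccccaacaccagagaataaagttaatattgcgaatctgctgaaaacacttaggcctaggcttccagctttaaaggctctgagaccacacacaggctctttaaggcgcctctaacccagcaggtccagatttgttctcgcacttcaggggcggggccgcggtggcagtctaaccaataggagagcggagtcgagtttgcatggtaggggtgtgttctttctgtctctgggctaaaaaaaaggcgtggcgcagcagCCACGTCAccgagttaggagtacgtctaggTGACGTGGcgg
Rab5a: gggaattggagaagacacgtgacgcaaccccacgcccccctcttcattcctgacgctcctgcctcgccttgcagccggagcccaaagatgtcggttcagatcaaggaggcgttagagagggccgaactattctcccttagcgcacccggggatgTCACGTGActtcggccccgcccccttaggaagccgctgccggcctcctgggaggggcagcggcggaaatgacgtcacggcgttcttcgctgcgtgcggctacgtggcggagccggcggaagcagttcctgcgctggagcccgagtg
Vps16: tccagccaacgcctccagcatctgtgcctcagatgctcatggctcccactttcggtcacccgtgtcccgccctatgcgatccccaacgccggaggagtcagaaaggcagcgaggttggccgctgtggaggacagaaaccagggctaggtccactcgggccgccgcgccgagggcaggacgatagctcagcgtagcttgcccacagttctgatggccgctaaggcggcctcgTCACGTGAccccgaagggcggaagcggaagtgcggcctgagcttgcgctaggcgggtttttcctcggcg

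The small GTPases of the Rab family divided almost evenly, 15 higher and 14 lower of 29, with a median log2 fold change of 1.05. The late endosomal and lysosomal Rab7, which drives fusion of late endosomes with lysosomes, fell the farthest. Its intensity was 71 and 83 on the berberine arrays, against 12180 and 9948 on the control arrays, at background with berberine and at least 82.7-fold lower. Rab20, a Rab of endosomes and phagosomes, had 53 and 66 with berberine, against 4887 and 3486 in controls (at least 23.6-fold lower). Rab23, known in mice as a negative regulator of Hedgehog signalling, had 62 and 75 with berberine, against 1976 and 1608 in controls (at least 9.01-fold lower). All 3 were detected in controls and at background with berberine. At the other end, Rab32, which serves lysosome-related organelles, had 8329 and 7201 with berberine, against 1975 and 1813 in controls, a log2 fold change of 2.68 ± 0.13. Rab33b, a Golgi Rab that binds the autophagy protein Atg16l1, had 14932 and 15045 with berberine, against 4796 and 3851 in controls (2.11 ± 0.15). In neither gene did the groups overlap. That holds for nearly all named genes: after normalization, 4751 of 8519 had both berberine arrays above both control arrays, and 3766 had both below. Lack of overlap therefore marks no gene out, here or below.

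The early endosomal Rab5 paralogs moved apart. Rab5a, whose promoter with the CLEAR core is printed above, had 37923 and 24578 with berberine, against 7476 and 5847 in controls, a log2 fold change of 2.21 ± 0.17. Rab5c had 189 and 135 with berberine, against 3732 and 3081 in controls (−3.71 ± 0.30). Rab5b was dim throughout, with 110 and 124 with berberine, against 389 and 322 in controls (at least 1.98-fold lower). Thus 1 of the 3 paralogs was higher and the other two were lower, without overlap between groups in any of them. Recycling Rabs divided as well. Rab11b of recycling endosomes had 73940 and 56028 with berberine, against 15311 and 12883 in controls (1.89 ± 0.12). Rab4a, of the fast recycling route, had 888 and 869 with berberine, against 4737 and 3902 in controls (−1.35 ± 0.11), and its paralog Rab4b also fell, with 1062 and 1061 with berberine, against 4546 and 3675 in controls. Rab9, which returns receptors from late endosomes to the Golgi, had 45085 and 31727 with berberine, against 14681 and 12065 in controls (1.27 ± 0.14).

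For the Rabs of the secretory route the picture was less settled. Rab1b, which acts between the endoplasmic reticulum and the Golgi, had 139 and 659 with berberine, against 4955 and 4118 in controls. It was at background with berberine by the authors' detection p-value, yet above the lowest detected signal, so no minimum fold can be given. It gave −3.06 ± 0.90 on the log2 scale (adjusted p = 0.0461 in limma, the highest among called members). It did not pass without control replicate 1 (adjusted p = 0.18) or control replicate 2 (adjusted p = 0.185). Rab8a, which carries cargo to the plasma membrane and the cilium, had 737 and 688 with berberine, against 12177 and 10097 in controls (−3.40 ± 0.11) on its brighter probe, and its dimmer probe went the other way. Its paralog Rab8b fell too (−3.19 ± 0.18). Rab10, which takes part in exocytosis, had 17105 and 14551 with berberine, against 7079 and 6232 in controls (1.35 ± 0.12) on its brighter probe, again with the dimmer probe opposed. Rab28, a Rab linked to the cilium, showed the same discord (1.53 ± 0.15 on the brighter probe). Rab40b was at background with berberine, at 89 and 95, against 224 and 218 in controls (at least 1.4-fold lower). The remaining 11 Rabs lay between −2.07 for Rab31 and 1.59 for Rab25. On intensities without normalization between arrays, 9 Rabs were called higher in place of 15.

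**Figure D3:**
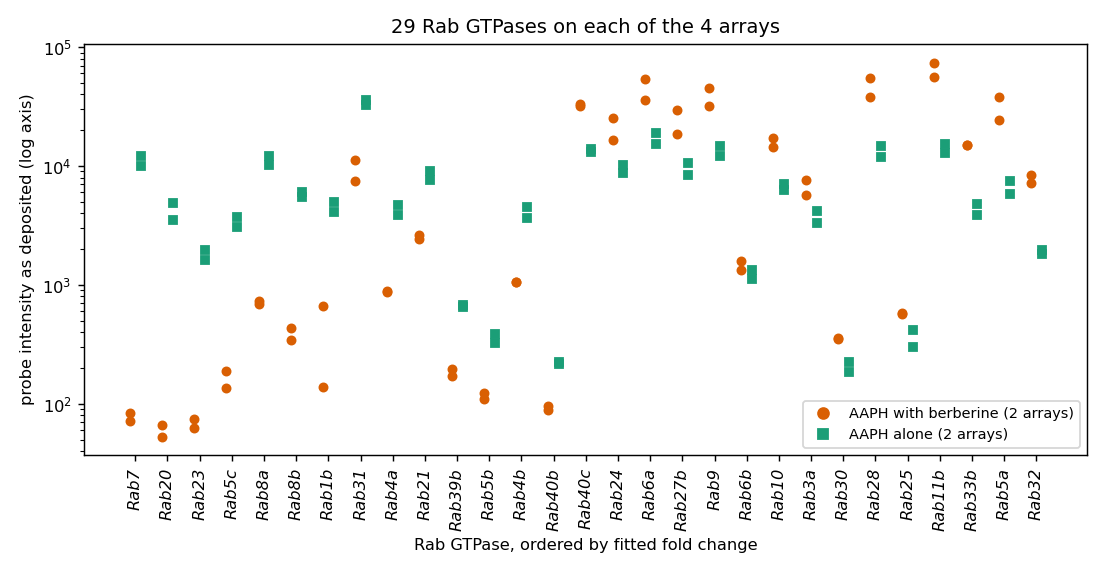
Intensity as deposited (log axis) of the 29 Rab GTPases on each of the 4 arrays, ordered by fitted fold change, with the 2 berberine arrays as circles to the left of the 2 control arrays as squares. Rab7, Rab20 and Rab23 on the left sit at 53 to 83 with berberine and at 1608 to 12180 in controls, and from Rab40c rightwards both berberine arrays lie above both control arrays.

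Proteins that act on Rabs were mostly called higher, as were 55.6% of all named genes. The effectors Rab11fip1 and Rab11fip3, which link Rab11 to motors and recycling, and Rab3ip, the Rabin8 exchange factor that activates Rab8, were all called higher (3 of 3). Rab11fip1 had 1377 and 1494 with berberine, against 760 and 631 in controls (2.03 ± 0.14 on the log2 scale). Rab11fip3 had 5060 and 3960 with berberine, against 2307 and 1797 in controls (1.90 ± 0.11), and Rab3ip gave 1.41 ± 0.18 on its brighter probe with the dimmer one opposed. Of the 18 TBC domain genes, whose products mostly switch Rabs off by speeding GTP hydrolysis, 13 were called higher and 4 lower, with a median of 1.71. On intensities without normalization between arrays, 9 of the 18 were called higher.

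Tbc1d8b, the largest rise among all members, had 7419 and 4302 with berberine, against 1259 and 997 in controls (3.02 ± 0.18). Tbc1d24, a presynaptic and neuronal TBC protein, had 1482 and 1060 with berberine, against 340 and 265 in controls (2.88 ± 0.16). Tbc1d21 had 4599 and 3557 with berberine, against 1550 and 1126 in controls (2.42 ± 0.13 on the log2 scale). These 3 showed no overlap between groups. Among the lower ones, Tbc1d13 had 689 and 559 with berberine, against 4336 and 3264 in controls (−1.60 ± 0.15). Tbc1d9b, at 58 and 94 with berberine, against 1467 and 1183 in controls, was at least 6.69-fold lower. Tbc1d10c, at 60 and 85 with berberine, against 293 and 226 in controls, was at least 1.59-fold lower. Tbc1d15, a GAP for Rab7, was a weak case: 1142 and 1112 with berberine overlapped 1150 and 888 in controls, the call rested on normalization (adjusted p = 0.678 on intensities as deposited, 0.00179 after normalization), and its other probe fell. Tbc1d30 read 1 and 55 with berberine, against 143 and 136 in controls, and gets no bound.

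Among 17 Arf and Arl genes and Arl partners 7 were called higher and 10 lower, with a median of −1.40. Arl3, which releases lipid-anchored cargo in the cilium, had 89 and 125 with berberine, against 36675 and 27212 in controls, at least 254-fold lower and the largest bound of any member. Arf3, a Golgi Arf that recruits coats, had 336 and 456 with berberine, against 46131 and 40895 in controls (−6.54 ± 0.21). Arl6ip5, a membrane protein known in rat to regulate a glutamate transporter, had 120 and 126 with berberine, against 10625 and 8782 in controls (at least 64.3-fold lower). All 3 were among the brighter probes in controls and dim with berberine. Arl2, a regulator of tubulin folding whose promoter holds the CLEAR core, fell by 5.48 on the log2 scale. The ciliary genes Arl13b (−1.99 ± 0.11) and Arl6 (−1.79 ± 0.12), both mutated in ciliopathies, also fell. Higher were Arl6ip6, at 10442 and 8713 with berberine, against 2073 and 1996 in controls (2.82 ± 0.15), and Arl14ep, at 18614 and 12117 with berberine, against 5497 and 3970 in controls (1.97 ± 0.17). Arf6, which governs recycling and actin at the plasma membrane, had 43641 and 26642 with berberine, against 10096 and 7457 in controls (1.88 ± 0.20) on its brighter probe, and fell on the other. Arl4d and Arl11 were called higher although their deposited intensities overlapped between groups.

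The 6 measured COPI genes, 2 higher and 4 lower, differed within 1 coat. Copz2, a ζ subunit, had 414 and 266 with berberine, against 10401 and 8507 in controls (−4.35 ± 0.31). Copg, a γ subunit named Copg1 in RefSeq, had 288 and 336 with berberine, against 5772 and 5324 in controls (−3.48 ± 0.16). Its paralog Copg2 had 671 and 658 with berberine, against 7138 and 5870 in controls (−2.54 ± 0.11). By contrast, Copb1, the β subunit, had 65841 and 62884 with berberine, against 22426 and 19851 in controls (1.21 ± 0.13), and Copb2, the β′ subunit, had 86980 and 60318 with berberine, against 26859 and 23366 in controls (1.11 ± 0.15). Both β genes carry TGACGTGG on the reverse strand in the promoters printed above. Copa, the α subunit, had 50880 and 60096 with berberine, against 73488 and 75361 in controls (−0.94 ± 0.23, adjusted p = 0.0269 in limma). Its direction is not settled: under median centring of each array it gave 0.18, on intensities as deposited it did not pass (adjusted p = 0.238), and it was also lost without berberine replicate 1 (0.0799), control replicate 1 (0.0929) or control replicate 2 (0.147).

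In the COPII coat, which buds from the endoplasmic reticulum, 5 of 9 genes were called higher and 4 lower. Of the cargo-binding Sec24 paralogs, Sec24c alone was lower among the 4 measured, at 80 and 104 with berberine, against 10536 and 7686 in controls (at least 64.3-fold). The others rose. Sec24a had 8389 and 5712 with berberine, against 3371 and 2469 in controls (1.88 ± 0.15). Sec24d had 6286 and 4695 with berberine, against 3103 and 2438 in controls (1.66 ± 0.12), and Sec24b had 26936 and 24408 with berberine, against 11514 and 8725 in controls (1.24 ± 0.13). Sec23a, the GTPase-activating partner of Sec24, had 18995 and 13733 with berberine, against 8213 and 6746 in controls (1.18 ± 0.12), and Sec23ip, a Sec23-binding protein of exit sites, gave 1.88 ± 0.17. Both berberine arrays lay above both control arrays for each of these 5. On intensities as deposited Sec24b alone of the 5 was called, with adjusted p-values of 0.0514 for Sec23a, 0.0536 for Sec24a, 0.0697 for Sec24d and 0.105 for Sec23ip. The outer cage gene Sec31a fell, with 1141 and 867 with berberine, against 18568 and 15570 in controls (−3.66 ± 0.15). The exit site scaffolds were also lower: Sec16b was at 80 and 76 with berberine, against 1022 and 849 in controls (at least 4.89-fold), and Sec16a fell by 0.94 on the log2 scale. Sec24d and Sec23a, both called higher, and Sec16b, called lower, share the TGACGTGG motif.

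The other Sec genes act in protein entry into the endoplasmic reticulum or carry a lipid-binding Sec14 domain. Sec61b, a subunit of the translocation channel, had 456 and 338 with berberine, against 8287 and 6638 in controls (−3.63 ± 0.22). Sec62, which helps proteins enter after their synthesis, had 8147 and 5571 with berberine, against 2893 and 2389 in controls (3.99-fold higher). Sec11c, a catalytic subunit of signal peptidase, had 50289 and 34373 with berberine, against 17092 and 14840 in controls (1.09 ± 0.15). The groups stood apart in all 3, and in the Sec14 domain gene Sec14l1, at 472 and 486 with berberine, against 15490 and 15334 in controls (−4.57 ± 0.16).

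Of the 17 AP adaptor genes, 7 were called higher and 10 lower. The AP-2 adaptor, which selects cargo for clathrin uptake at the cell surface, was measured in 3 subunits. Its small subunit Ap2s1 had 110 and 175 with berberine, against 22027 and 19374 in controls (at least 129-fold lower). Ap2a2, an α subunit, had 62 and 96 with berberine, against 3839 and 3261 in controls (at least 19.4-fold lower). The α paralog Ap2a1 had 4481 and 2592 with berberine, against 2246 and 1856 in controls (1.58 ± 0.19), and this call was lost on intensities as deposited (adjusted p = 0.21) and under median centring (0.0589). AP-3 sends cargo to lysosomes and lysosome-related organelles, and its β subunit Ap3b1, mutated in the pearl mouse, had 60 and 75 with berberine, against 9023 and 7697 in controls (at least 58.6-fold lower). The small subunits of AP-3 opposed each other: Ap3s1 had 1201 and 1040 with berberine, against 14473 and 11896 in controls (−3.06 ± 0.11), whereas Ap3s2 had 3303 and 2811 with berberine, against 1496 and 1045 in controls (2.17 ± 0.13). Ap3m2, the neuronal μ subunit, rose by 1.89 ± 0.11 on the log2 scale, not passing on intensities as deposited (adjusted p = 0.0518).

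AP-1, which works with clathrin at the trans-Golgi network, had 3 of 4 subunits higher. Ap1g1 had 23104 and 14451 with berberine, against 7129 and 4603 in controls (1.82 ± 0.23). Ap1b1 had 6630 and 5369 with berberine, against 3172 and 2757 in controls (1.66 ± 0.12), and Ap1m1 had 24130 and 19967 with berberine, against 10733 and 7853 in controls (1.20 ± 0.13). The fourth, the small subunit Ap1s1, was lower at 1141 and 900 with berberine, against 5257 and 4527 in controls (−1.40 ± 0.14). AP-4, an adaptor that exports the autophagy protein ATG9A in human cells, had all 3 measured subunits lower: Ap4b1 at −2.83 ± 0.11, Ap4m1 at −1.57 ± 0.16 and Ap4s1 at −1.32 ± 0.17. Without control replicate 2, Ap4s1 missed the threshold (adjusted p = 0.0513 in limma). In the late endosomal AP-5, Ap5z1 rose (2.24 ± 0.13) and Ap5s1 fell (−2.49 ± 0.11).

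The tethers were 9 higher and 10 lower of 19, in the main part subunits of TRAPP and of the exocyst. TRAPP activates Rab1 and Rab11 at the Golgi, and 6 of its 8 measured subunits were lower. Trappc6b had 32 and 64 with berberine, against 13754 and 11352 in controls (at least 95.7-fold lower). Trappc8, a subunit of the TRAPPIII form, had 188 and 226 with berberine, against 11022 and 10057 in controls (−5.35 ± 0.14). Trappc5, at 72 and 114 with berberine, against 3580 and 3140 in controls, was at least 18.1-fold lower. Of the core subunits, Trappc3 (−3.26 ± 0.17, both probes lower), Trappc4 (−2.89 ± 0.11) and Trappc1 (−1.26 ± 0.13) fell as well. Trappc9, a subunit of the TRAPPII form linked to microcephaly, was the clearest exception, at 10963 and 10402 with berberine, against 2532 and 2518 in controls (2.62 ± 0.18). Trappc12 was higher after normalization (1.22 ± 0.13) and did not pass on intensities as deposited (adjusted p = 0.116).

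The exocyst ties secretory vesicles to the plasma membrane, and 6 of its 9 measured genes were higher. Exoc2 (Sec5) had 17453 and 13442 with berberine, against 4128 and 3247 in controls (2.45 ± 0.11). Exoc5 (Sec10) had 7763 and 4947 with berberine, against 2725 and 1986 in controls (2.08 ± 0.16). Exoc6b had 26532 and 29228 with berberine, against 7996 and 6905 in controls (1.88 ± 0.18), while its paralog Exoc6 fell, at 130 and 124 with berberine, against 930 and 709 in controls (4.01-fold lower). Smaller rises were seen for Exoc7 (1.12 ± 0.12) and Exoc3 (1.39 ± 0.12, both probes higher, adjusted p = 0.0841 on intensities as deposited), and Exoc8 rose on its brighter probe only (1.90 ± 0.17). Exoc4 (Sec8) was lower at 119 and 145 with berberine, against 4329 and 3319 in controls (at least 18.0-fold), and Exoc1 (Sec3) at 435 and 339 with berberine, against 4597 and 3811 in controls (−2.59 ± 0.19). Whether the 2 complexes differ in their share of higher genes was not tested.

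The 19 SNARE genes were 10 higher and 9 lower, with a median of 1.16 (0.89 with bounds). Syntaxins, the SNAREs of target membranes, were 4 higher and 5 lower. Stx4a of the plasma membrane had 61 and 84 with berberine, against 4039 and 3120 in controls (at least 19.4-fold lower). Stx7 of late endosomes had 964 and 358 with berberine, against 13983 and 12380 in controls (−4.06 ± 0.55). Its berberine arrays differed widely, and it missed the threshold without control replicate 1 (adjusted p = 0.0509) or 2 (0.0537). Stx18 of the endoplasmic reticulum had 60 and 77 with berberine, against 2015 and 1568 in controls (at least 8.99-fold lower), and Stx5a, the syntaxin between the endoplasmic reticulum and the Golgi, had 1075 and 919 with berberine, against 11215 and 9196 in controls (−2.77 ± 0.12). The promoter of Stx5a, printed above, holds the TGACGTGG letters on both strands. Stx2 of the plasma membrane was dim, at 70 and 93 with berberine, against 353 and 294 in controls (at least 1.93-fold lower).

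Syntaxins that rose were Stx11, Stx3, Stx17 and Stx16. Stx11, a syntaxin of immune cell granules, had 3901 and 3811 with berberine, against 1281 and 1039 in controls (2.55 ± 0.12) on its brighter probe and fell on the other. Stx3 of apical membranes had 954 and 870 with berberine, against 444 and 324 in controls (2.16 ± 0.12). Stx17, which fuses autophagosomes with lysosomes, had 1907 and 1755 with berberine, against 1231 and 968 in controls (1.75 ± 0.11, adjusted p = 0.0946 on intensities as deposited). Stx16 of the trans-Golgi network gave 1.16 ± 0.12, with no overlap between the groups.

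Of the 5 VAMPs, the SNAREs on vesicles, 4 were lower. Vamp7, which serves lysosome and neurite exocytosis, had 210 and 208 with berberine, against 5823 and 4504 in controls (16-fold lower). Vamp2, the synaptobrevin of synaptic vesicles, had 485 and 508 with berberine, against 5037 and 4424 in controls (−2.37 ± 0.12). Vamp8, or endobrevin, had 2399 and 2500 with berberine, against 10668 and 9031 in controls (−1.57 ± 0.14). Vamp5 was near the floor, at 108 and 145 with berberine, against 383 and 303 in controls (at least 1.74-fold lower), and missed the threshold without control replicate 1 (adjusted p = 0.0563) or 2 (0.0586). The exception was Vamp4 of the trans-Golgi network, at 4443 and 4645 with berberine, against 2078 and 1944 in controls (1.94 ± 0.17). The 3 measured SNAP25-like genes were all higher. Snap47 had 43043 and 27106 with berberine, against 10997 and 9169 in controls (1.62 ± 0.17). For the widely expressed Snap23 (1.29 ± 0.12) and for Snap29, the partner of Stx17 in autophagosome fusion (1.65 ± 0.17), the call was lost on intensities as deposited (adjusted p = 0.0801 and 0.0574). Sec22a, at 168 and 143 with berberine, against 33 and 39 in controls, was the only member at background in controls and was at least 1.85-fold higher, and Sec22c rose on its brighter probe (1.75 ± 0.14).

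**Figure D4:**
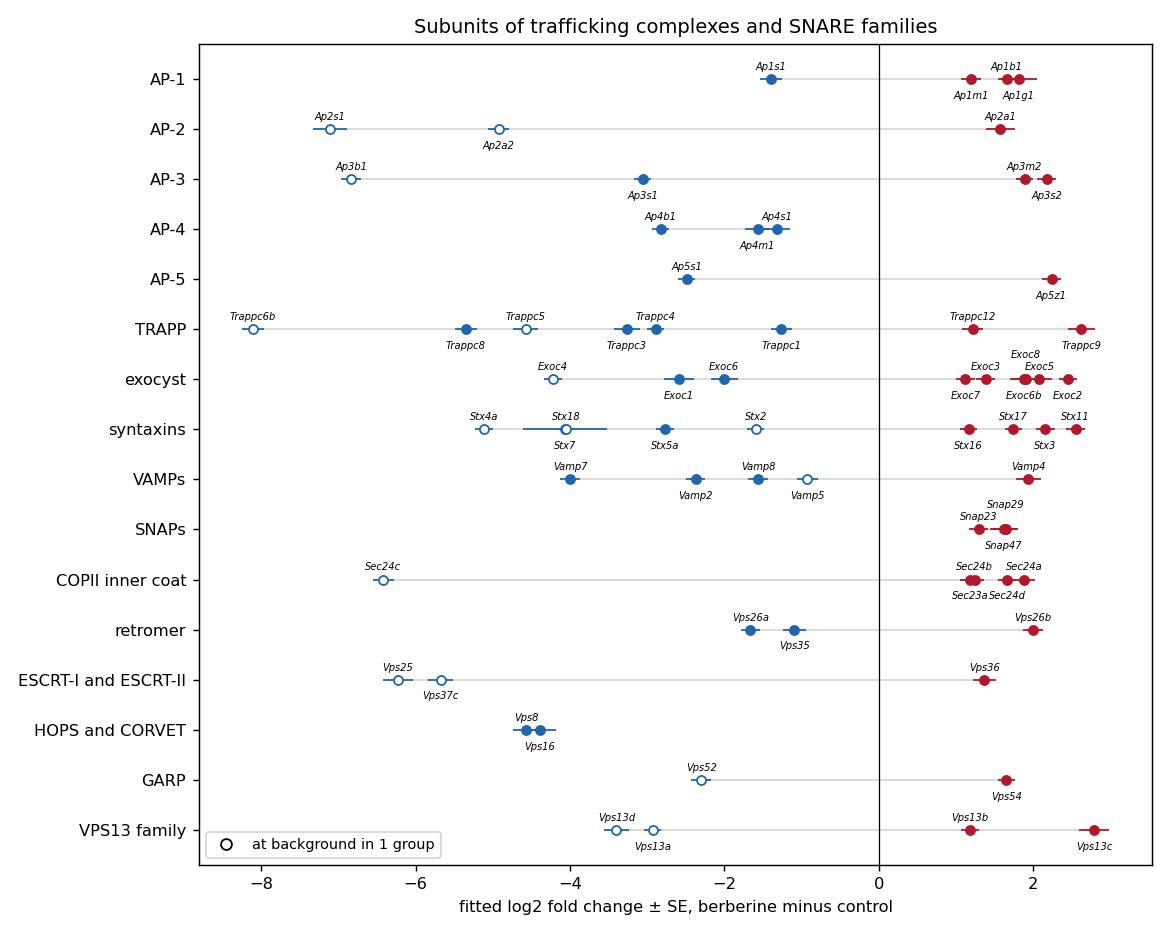
Fitted log2 fold change ± standard error, berberine minus control, of the measured members of trafficking complexes and SNARE families, 1 row a complex or family. Open points were at background in 1 group. Most rows cross 0: TRAPP has 6 of 8 members on the lower side and the exocyst 6 of 9 on the higher side. The 3 AP-4 genes and the 2 HOPS and CORVET genes are all lower, and the 3 SNAP genes all higher.

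Sorting nexins bind phosphoinositides on endosomes, and 9 of the 13 measured were lower with 4 higher. Snx3, which works with retromer to recycle the Wnt carrier Wntless, had 373 and 325 with berberine, against 53227 and 43988 in controls, 122-fold lower and above background in both groups. Snx7 had 51 and 75 with berberine, against 3381 and 2883 in controls (at least 16.7-fold lower), and Snx12 had 226 and 225 with berberine, against 9760 and 7459 in controls (−4.84 ± 0.13), both with a second probe that also fell. Snx9, which joins dynamin in endocytosis (−4.10 ± 0.27), and Snx5, of the retromer-linked coat (−3.75 ± 0.14), were lower too. Snx16 led the rises, at 2378 and 2280 with berberine, against 1188 and 927 in controls (2.10 ± 0.12). Snx13 rose on its brighter probe only (1.13 ± 0.11), and the intensities of Snx19 and Snx30 overlapped between groups (Snx30 adjusted p = 0.474 as deposited, 0.00317 after normalization), which left 2 of the 4 rises called without normalization.

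Of the 18 Vps genes 7 were called higher and 11 lower. Both measured genes of the HOPS and CORVET tethers, which catch endosomes and lysosomes, were lower: Vps16 had 346 and 267 with berberine, against 9798 and 8022 in controls (−4.39 ± 0.21), and Vps8 had 188 and 244 with berberine, against 7401 and 6748 in controls (−4.57 ± 0.17). Vps16, with the CLEAR core printed above, thus moved against Rab5a, which carries the same letters and rose. Vps33b, a fusion factor homologous to a HOPS subunit, was higher at 13691 and 10484 with berberine, against 3501 and 3138 in controls (2.31 ± 0.13). In the retromer, which returns receptors from endosomes, Vps26a had 21983 and 18096 with berberine, against 51145 and 47040 in controls (−1.66 ± 0.12), and Vps35 had 28221 and 28849 with berberine, against 49002 and 42993 in controls (−1.09 ± 0.14). The paralog Vps26b rose instead, at 8938 and 8518 with berberine, against 3441 and 2944 in controls (3.99-fold higher), on both of its probes. The falls of Vps26a and Vps35 were lost under median centring (adjusted p = 0.0748 and 0.686), and that of Vps35 also on intensities as deposited (0.0884) and without control replicate 2 (0.053).

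The ESCRT machinery bends membranes away from the cytosol to form multivesicular bodies and to cut the last bridge between dividing cells. Vps25 of ESCRT-II had 88 and 136 with berberine, against 10625 and 8870 in controls (at least 61.8-fold lower). Vps37c of ESCRT-I had 31 and 47 with berberine, against 3034 and 2401 in controls (at least 14.1-fold lower), and Vps4a, the ATPase that takes ESCRT-III apart, had 475 and 446 with berberine, against 6581 and 5502 in controls (−2.98 ± 0.12). Vps36, the partner of Vps25 in ESCRT-II, was higher at 54533 and 38471 with berberine, against 15517 and 13704 in controls (1.37 ± 0.15). ESCRT-III genes, the CHMP family, were lower in 5 of 6 cases, with a median of −3.50. Chmp2a had 267 and 310 with berberine, against 20084 and 16945 in controls (−5.73 ± 0.13). Chmp1a had 689 and 750 with berberine, against 21488 and 19305 in controls (−4.39 ± 0.14), and Chmp2b, a gene mutated in a form of human frontotemporal dementia, had 208 and 216 with berberine, against 7081 and 5225 in controls (−4.32 ± 0.13). Chmp3 (−2.68 ± 0.15) and Chmp1b (−1.38 ± 0.19) followed. Chmp4b, the main filament former, went the other way at 65213 and 41928 with berberine, against 19057 and 15421 in controls (1.28 ± 0.17), a call lost without control replicate 2 (adjusted p = 0.0517).

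The lipid transfer proteins of the VPS13 family and the GARP tether also split. Vps13c rose, with 2978 and 1767 with berberine, against 640 and 541 in controls (2.79 ± 0.20), and Vps13b rose on its brighter probe (1.18 ± 0.12, adjusted p = 0.235 on intensities as deposited). Vps13d, at 23 and 54 with berberine, against 562 and 423 in controls, was at least 2.79-fold lower, and Vps13a, at 52 and 75 with berberine, against 770 and 609 in controls, at least 3.74-fold lower. Of the GARP genes, Vps54 was higher (1.65 ± 0.11) and Vps52 at least 1.32-fold lower. Vps9d1, which has the exchange domain that activates Rab5, rose by 2.41 ± 0.15 on the log2 scale.

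A second named probe was available for 17 members, and in 11 of them the 2 probes moved in opposite directions (64.7%, against 47.5% of 623 named genes with several probes). For all 11 the sheet gives both probes the same RefSeq accessions. Rab10 was the widest case: against the rise on its brighter probe, the dimmer probe had 304 and 336 with berberine, against 22424 and 20928 in controls (−5.82 ± 0.13). The dimmer probe of Rab28 had 121 and 115 with berberine, against 7337 and 6124 in controls (−5.48 ± 0.18), also against a rise. For Rab8a it was the dimmer probe that rose, with 7378 and 5319 with berberine, against 2135 and 1701 in controls (2.40 ± 0.12). The others were Arf6 (−2.45 on the dimmer probe), Exoc8 (−1.47), Rab3ip (−1.78), Sec22c (−1.61), Snx13 (−3.16), Stx11 (−2.26), Tbc1d15 (−3.70) and Vps13b (−2.97). On the dimmer probes of Rab28, Exoc8, Snx13 and Vps13b the signal with berberine was at background, so these fitted values have no exact size. In 10 of the 11 the probe that is brighter on average was the one that rose. Brightness was averaged over all 4 arrays, so a fall with berberine lowers a probe's rank and that count is partly built in. In controls alone the dimmer probe was the brighter one for Rab10, Arf6, Tbc1d15 and Exoc8, but not for the others. For Rab10 the normalized log2 control level was 14.56 on the dimmer probe, against 12.53 on the other. Neither direction can be given for any of the 11 genes. The 6 members whose probes moved the same way were Exoc3, Rab11b, Snx12, Snx7, Trappc3 and Vps26b.

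**Figure D5:**
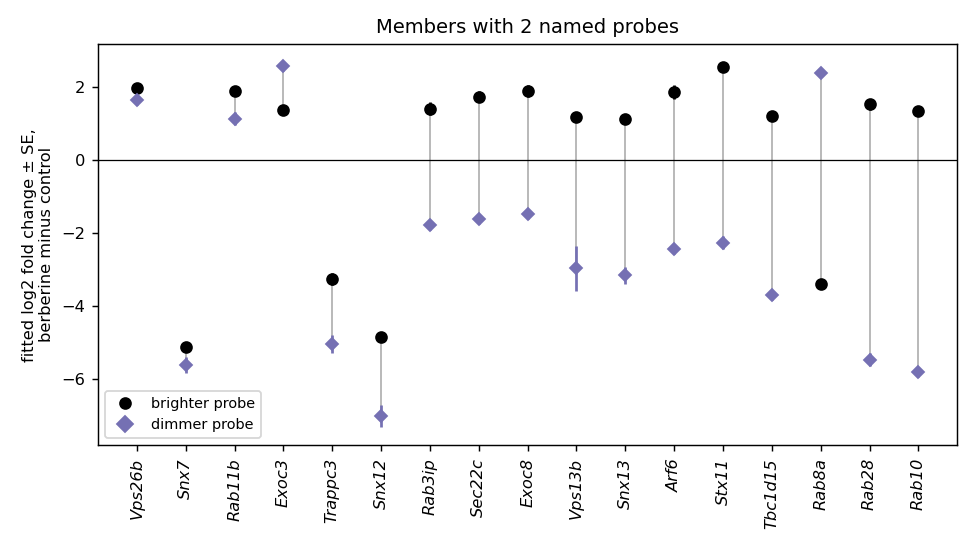
Fitted log2 fold change ± standard error, berberine minus control, of both named probes of the 17 members that have 2, with black circles for the probe brighter over the 4 arrays and purple diamonds for the dimmer one, ordered by the distance between them. In the 11 genes on the right the probes lie on opposite sides of 0, up to 1.35 and −5.82 for Rab10.

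In the authors' deposited table all 178 members have a ratio, 85 above 0 and 93 below, each with the sign of the fit here, and 6 stand at its lowest value, −6.64. The authors' deposited table of biological process terms lists protein transport with 337 called genes of 592 (q = 1.17e-15), vesicle-mediated transport with 122 of 213 (q = 5.81e-05), ER to Golgi vesicle-mediated transport with 49 of 78 (q = 0.00891), intracellular protein transport with 118 of 232 (q = 0.0407) and membrane fusion with 25 of 35 (q = 0.0477). In the same deposited table endocytosis had 93 of 181 with q = 0.0917. Further traffic terms there ran from q = 0.212 for intra-Golgi vesicle-mediated transport to 0.819 for vesicle fusion with the Golgi apparatus. Among them were endosome organization (q = 0.548), retrograde transport from endosome to Golgi (q = 0.655) and vesicle docking (q = 0.818). No share of called genes over all terms is given beside these counts. These terms count called genes of both directions, and the sources used here do not give the authors' method for them.

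Partners of these families that the symbol rule leaves out were read from lists of related genes, each counted over the members with a named probe, against which the shares over all named genes given above (55.6% higher and 44.1% lower) are the background. Cargo receptors and p24 proteins were mostly lower, with 15 of 20 lower and 4 higher (median −3.50). Their median normalized log2 level in controls was 12.84. In the band of 12 to 14, 61.9% of the named genes outside the rule were called lower. Bcap31, a cargo receptor of the endoplasmic reticulum, had 208 and 215 with berberine, against 108574 and 90775 in controls. It was 450-fold lower by the fit, at background with berberine by the authors' detection p-value but above the lowest detected signal. Tfrc, the transferrin receptor, had 121 and 153 with berberine, against 28873 and 23517 in controls (at least 183-fold lower). Scamp5, a secretory carrier protein of neurons, rose by 1.61 ± 0.17 on the log2 scale, and Lman2l, a lectin receptor, by 1.95 ± 0.15 on its brighter probe with the other opposed. Exchange factors, GAPs and escorts of the Rab and Arf cycle were mostly higher, with 24 of 36 higher and 12 lower (median 1.32). Iqsec1, an exchange factor for Arf6, had 4578 and 3338 with berberine, against 931 and 780 in controls (2.94 ± 0.12), and Chml, a Rab escort protein, 11091 and 6969 with berberine, against 2077 and 1580 in controls (2.89 ± 0.16). Arfip1, which binds Arfs and Arl1, fell by 5.74 on the log2 scale, and Dennd5a, an exchange factor for Rab39, was at least 23.5-fold lower.

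Genes that recycle SNAREs, SM proteins and other SNAREs were 7 higher and 13 lower of 20 (median −1.90). Syt11, a synaptotagmin, had 18262 and 14853 with berberine, against 3222 and 2855 in controls (2.86 ± 0.12), and Scfd1, the SM protein that works with Stx5a, 24261 and 22141 with berberine, against 6082 and 4335 in controls (2.33 ± 0.15). The Golgi SNARE Gosr1 was at least 11.3-fold lower and Use1, which pairs with Stx18, at least 7.54-fold lower. Scfd1 thus rose while its syntaxin fell, and Use1 fell with its own. Clathrin and endocytosis genes were 15 higher and 13 lower of 28 (median 1.11). Within them the dynamins, which cut vesicles free, were opposed: the neuronal Dnm1 had 3910 and 3880 with berberine, against 989 and 878 in controls (2.84 ± 0.14), and the widely expressed Dnm2 had 179 and 206 with berberine, against 6777 and 5956 in controls (−4.56 ± 0.12). The caveolar gene Cav2 rose by 2.51 ± 0.13 on the log2 scale, and the endocytic scaffold Itsn2 was at least 13.7-fold lower.

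Golgi tethers, golgins and COG subunits were 11 higher and 9 lower of 20 (median 0.96), from Golga5 (−4.55 ± 0.12) and Cog4 (−3.68 ± 0.12) to Nbas (2.48 ± 0.13) and Blzf1 (2.58 ± 0.14). Partners of HOPS, GARP, retromer and lysosomes were 3 higher and 7 lower of 10 (median −1.41). Becn1, the autophagy regulator that works with the Vps34 kinase, had 1575 and 1897 with berberine, against 38388 and 33842 in controls (−4.12 ± 0.18), and Mitd1, an ESCRT-III partner in cell division, 196 and 217 with berberine, against 7115 and 5994 in controls (−4.49 ± 0.11). Rilp, the effector that links Rab7 to dynein, had 6592 and 5903 with berberine, against 1915 and 1221 in controls (2.73 ± 0.17), opposite to Rab7 itself. Ccdc132, the EARP subunit that stands in for Vps54, rose by 2.81 ± 0.12 on the log2 scale. Every partner gene named here had arrays that did not overlap between groups, as had nearly all named genes (4751 above and 3766 below of 8519 after normalization).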

How the data were processed

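The values are Cy5 intensities of 26423 probes on 4 arrays, deposited by the authors in 1 table. The background correction and the scaling behind them, and a genome build, are not given in the labels or headers. Per the file headers, the authors' sheet of called probes adds detection p-values, a log2 ratio and its p-value, and the term sheets add q-values; those p-values and ratios are the authors' own. Its groups G3 and G1 were read as berberine and control because their means matched those arrays (median difference 0.662% and 0.273%). The tables held 0 per-sample columns of no sample.

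Values below 1 were set to 1, and log2 intensities were quantile-normalized, since array medians differed by more than 0.1, and fitted with limma 3.58.1 (lmFit, eBayes) in R 4.3.3 over all probes with Benjamini-Hochberg adjustment and a threshold of 0.05. The fit was tested on simulated data. After it, the log2 difference had a median of 0.39 over all probes (0.13 as deposited, 0.74 with median centring), to which all changes are relative. Each gene is its brightest named probe. A probe with a detection p of 0.01 or more in a group counts as at background there; its bound uses the lowest detected signal of each array. Such bounds follow a rule and are no confidence limits. The number of arrays limits the precision.

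Members, lists and tests were chosen with earlier results of these data known. In each role group the rule names the 3 largest rises and 3 largest falls past the threshold, a core list and members with opposed probes (97 genes); 31 complex subunits, and any further member the text names, were named after their values were seen. All members matched the RefSeq table of GRCm38.p6 by Entrez identifier, 1 under another symbol. Same-numbered samples did not deviate together (r = −0.0156), so numbers were not treated as pairs. The promoter motifs were shortened for CLEAR, NRF1 and YY1, and the ER stress element, GFY and ZNF143 motifs were dropped, after shares for the longer forms had been seen.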

Additional observations from a re-analysis of the deposited data

How the results depend on the processing

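Across the alternatives run (other scaling, floor, dim filter, replicate block, each array left out, other probe choices), members called higher numbered 58 to 85 and lower 82 to 101. On intensities as deposited 8770 probes were called (3534 higher and 5236 lower), against 16578 after normalization (10635 higher and 5943 lower), and 58 members were higher and 88 lower; no member turned sign there. The members' median was −1.14 as deposited, −0.53 under median centring and −1.30 on the dimmest probe, chosen after seeing the data. Leaving out 1 array gave 11555 to 15508 probes, 81 to 84 higher and 82 to 92 lower members, and medians of −1.05 to −0.94. With the replicate number as a block, 15558 probes, 85 higher and 92 lower members and a median of −0.97 resulted; the numbers do not pair the samples. Without the members whose probes opposed each other, 75 were higher and 91 lower of 167.

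Median centring reversed Copa (0.18). The mean of all probes reversed Arf6 (−0.29), Rab10 (−2.23), Rab28 (−1.97), Rab3ip (−0.19), Snx13 (−1.02), Tbc1d15 (−1.24) and Vps13b (−0.89). The dimmest probe reversed Arf6 (−2.45), Exoc8 (−1.47), Rab10 (−5.82), Rab28 (−5.48), Rab3ip (−1.78), Rab8a (2.40), Sec22c (−1.61), Snx13 (−3.16), Stx11 (−2.26), Tbc1d15 (−3.70) and Vps13b (−2.97), since these probes oppose the brighter ones. Otherwise the cause was not tested. Signal at background in 1 group leaves the size of 30 members' differences open to bounds alone, with none for Tbc1d30 and only the fitted value for Rab1b.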
